A study of Homo sapiens with 6 samples.

Results

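Genes of the intermediate filament system were followed in A375 cells, an established human melanoma line, with and without added SLNCR, a long non-coding RNA that RefSeq names LINC00673. They are KRT8, KRT18 and KRT10, which encode keratins 8, 18 and 10, the vimentin gene VIM, the nestin gene NES, the lamin genes LMNA and LMNB2, and the plectin gene PLEC. These 8 genes, of 18318 in the table used, were selected by symbol. KRT8, KRT18 and VIM were picked for being lower with SLNCR in the same libraries, so their difference between the groups is given as a description with no test. The other 5 keep the test that was run across all genes, although all 8 were chosen with earlier results of these data known.

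Intermediate filaments are built from rod-shaped proteins that pair along their length. Keratins are obligate partners: a type II keratin such as keratin 8 pairs with a type I keratin such as keratin 18, and this simple-epithelium pair is also made by some melanoma cells. Vimentin forms the main cytoplasmic filament of mesenchymal cells and of most melanoma cells, lamins form the meshwork under the inner nuclear membrane, and plakins such as plectin tie filaments to each other and to adhesion sites.

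Both groups of cells grew in DMEM with 10% fetal bovine serum, received a pcDNA3.1 plasmid with a CAG promoter and a puromycin resistance gene through a lipid reagent, and were kept in 2 µg/mL puromycin for 48 h before RNA was taken. The empty vector group (3 libraries) carried the backbone alone, and the SLNCR group (3 libraries) carried the backbone with wild type SLNCR, so SLNCR came from a strong general promoter in a mixed, selected population. Libraries were made after depletion of ribosomal RNA and read from both ends, 150 bases each. According to its design text, the study looked for genes that SLNCR regulates. The labels call the libraries biological replicates without saying how the cultures were separated, so p-values measure only the spread between these samples.

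Between 9018886 and 10497547 counts per library entered the comparison. Replicates 1, 2 and 3 of a group are given in that order throughout. LINC00673 had 195, 194 and 193 counts in empty vector and 1786, 2569 and 2040 counts in SLNCR, so the libraries match their labels. Of 12797 genes with enough counts to test, 2112 (16.5%) differed at an edgeR adjusted p below 0.05, with 1131 higher and 981 lower in SLNCR. Their median absolute log2 fold change was 0.29. Fold changes followed the GC content of the transcripts, and with a correction for GC content in each library (GC-corrected below) 2 genes (0.0156%) differed and 1935 (15.1%) had an unadjusted p below 0.05. LINC00673 was not one of the 2, at a GC-corrected log2 fold change of 3.38 (adjusted p = 0.0538 by edgeR). The correction took the GC content of a gene's longest transcript; one that took the APPRIS principal transcript, the main annotated coding form, was added after seeing the data and also left 2 genes. As counted, 1 gene passed when empty vector replicate 1 was left out, 2 when empty vector replicate 2 was, 1 when SLNCR replicate 1 was, and 3366 when SLNCR replicate 2 was.

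The sequences below show how the start regions of these genes differ. Each is the 250 bases before the gene's start in RefSeq (GRCh38.p14), written 5′ to 3′ on the strand of the gene, with motif matches in capitals. KRT10 (chr17:40822615-40822864, minus strand) has a TATA box (TATAAA) that begins 29 bases before the start, VIM (chr10:17227991-17228240, plus strand) has a GC box (GGGCGG) 46 bases before it, and LMNB2 (chr19:2456960-2457209, minus strand) has a GC box 29 bases before it.
KRT10: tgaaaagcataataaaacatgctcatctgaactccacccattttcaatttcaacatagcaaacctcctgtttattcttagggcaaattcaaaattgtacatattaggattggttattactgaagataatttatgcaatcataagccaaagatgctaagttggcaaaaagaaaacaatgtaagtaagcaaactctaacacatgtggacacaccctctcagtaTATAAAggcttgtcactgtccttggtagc
VIM: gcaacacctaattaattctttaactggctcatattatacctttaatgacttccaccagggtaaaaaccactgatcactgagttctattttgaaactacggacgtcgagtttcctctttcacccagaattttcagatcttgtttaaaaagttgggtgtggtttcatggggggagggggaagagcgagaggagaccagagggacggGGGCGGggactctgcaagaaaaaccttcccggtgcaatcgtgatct
LMNB2: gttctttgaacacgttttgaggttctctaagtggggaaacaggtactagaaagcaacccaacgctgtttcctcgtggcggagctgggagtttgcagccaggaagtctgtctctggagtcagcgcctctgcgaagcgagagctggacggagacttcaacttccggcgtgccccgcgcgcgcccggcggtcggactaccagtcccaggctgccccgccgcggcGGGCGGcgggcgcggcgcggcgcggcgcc
The GC content of the windows was 34.8% for KRT10, 46.0% for VIM and 66.4% for LMNB2, against a median of 58.0% over 35116 RefSeq promoters. Of those promoters 42.6% hold a GC box on either strand, and 10.7% hold TATAAA or its complement. Windows were read for 6 of the 8 genes, 8 windows in all because LMNA has 3. The start regions of KRT18 and PLEC were not read, so the motif search does not cover them. The NES window held GC boxes 62 and 50 bases before the start, and the LMNA windows held GC boxes 19 bases, 44 bases, and 145 and 50 bases before their starts. The KRT8 window belongs to an alternative start and held no motif. None of the 8 windows held an AP-1 site (TGANTCA, found in 6.6% of all promoters), an E2F site (TTTNGCGC, in 1.5%) or an E-box (CACGTG, in 6.3%), searched on both strands. A match is a run of letters and not evidence of binding.

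Levels between genes were compared per kilobase of merged exons, in CPM (counts scaled to a common library size with TMM factors) per kb. Vimentin was the leading filament gene with 673.6 ± 28.3 CPM per kb (SD, n = 3) in empty vector and 599.7 ± 40.2 in SLNCR. It stood above 99.7% of tested genes. KRT18 had 119.3 ± 7.67 CPM per kb in empty vector and 97.8 ± 4.88 in SLNCR, and PLEC 108.0 ± 7.15 and 83.5 ± 9.33. By this length, KRT18 and the linker gene PLEC were neighbours in level. LMNA followed with 87.9 ± 7.99 and 70.0 ± 11.7, LMNB2 with 35.6 ± 1.88 and 28.9 ± 2.93, and KRT8 with 26.3 ± 1.44 and 21.2 ± 2.07. At the low end were KRT10 with 13.03 ± 0.688 and 11.2 ± 0.893 CPM per kb and NES with 1.08 ± 0.0690 and 1.04 ± 0.261. NES encodes nestin, a filament protein of neural progenitors, and stood above only 14.5% of tested genes.

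The order of the 8 genes was the same in both groups. In empty vector the ranges of KRT18 and PLEC overlapped, and in SLNCR those of PLEC and LMNA did, so these neighbours did not differ beyond their spread. Among 19 filament, lamin and plectin genes that averaged 10 counts or more, or were named by rule, the hair keratin gene KRT81 came next to VIM with 620.3 CPM per kb in empty vector and 524.3 in SLNCR, and its range overlapped that of VIM in both groups. That overlap rests on merged exons. By the longest transcript VIM had 1303 and 1160 CPM per kb, and KRT81 again 620.3 and 524.3. KRT81 has a near-identical neighbour, KRT86 (0.983 CPM per kb in empty vector), so its level depends on how the authors' counting split shared reads. GFAP, the astrocyte filament gene, was the lowest of the 19 at 0.124 CPM per kb. Levels and their order depend on the length used. For KRT8, GENCODE gives a merged exon length of 6881 bases and a longest transcript of 2862 bases. By the longest transcript KRT8 stood at 63.1 CPM per kb in empty vector and passed LMNB2 (41.5). LMNA, at 192.5, then passed PLEC (120.3) and KRT18 (183.8). In SLNCR, LMNA stood at 153.3 and KRT18 at 150.8.

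**Figure D1:**
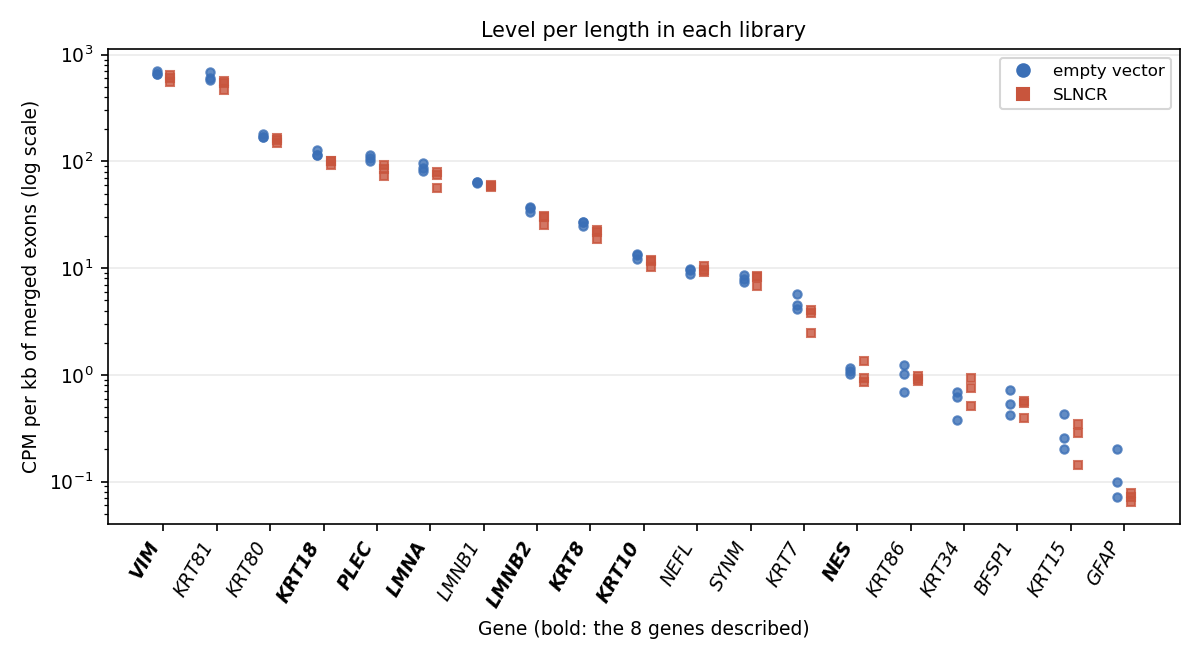
CPM per kb of merged exons (log axis) for 19 filament, lamin and plectin genes in each of the 3 empty vector (circles) and 3 SLNCR (squares) libraries, ordered by the empty vector mean. VIM and KRT81 lead, NES lies near 1 CPM per kb, and the order of means was the same in both groups.

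Among the 9 keratin genes of that plot, KRT18 made up 11.6% to 12.7% of the summed CPM per kb in each library, KRT8 2.55% to 2.91% and KRT10 1.31% to 1.46%. KRT81 held 63.0% to 65.8% and KRT80 17.3% to 20%. These shares depend on the merged exon length. By the longest transcript KRT81 had 620.3 CPM per kb in empty vector, KRT80 192.2, KRT18 183.8 and KRT8 63.1. The sum itself was 1041, 926.7 and 904.9 CPM per kb in empty vector and 845.2, 868.8 and 740.1 in SLNCR. The sum was lower in every SLNCR library than in every empty vector library, as were 19.1% of tested genes taken singly. It includes KRT8 and KRT18, picked for being lower, and is not GC-corrected. GC-corrected, the log2 fold changes of KRT81 and KRT80 were -0.01 and 0.03. The shares of KRT8, KRT18, KRT10 and KRT81 overlapped between the groups. That of KRT80 was higher in every SLNCR library (18.9% to 20%) than in every empty vector library (17.3% to 18.6%).

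All 8 genes passed the filter on low counts. KRT8, KRT18 and VIM were picked for being lower, so they are left out of the counts here. The other 5 were also chosen with earlier results of these data known, so their counts are a description. Of the 5 other genes, LMNB2 and PLEC were lower in SLNCR at an edgeR adjusted p below 0.05 and 0 were higher, against 7.67% lower and 8.84% higher over all tested genes. KRT10, NES and LMNA did not pass. In 4 of the 5, all but NES, each SLNCR library lay below each empty vector library (19.1% of tested genes), and in 0 did each lie above (19.7%). Their median log2 fold change was -0.30, against -0.01 over all tested genes. With the GC correction it was -0.08, and 0 of the 5 passed by edgeR, with 0 at an unadjusted p below 0.05 (1, PLEC, by the principal transcript).

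**Figure D2:**
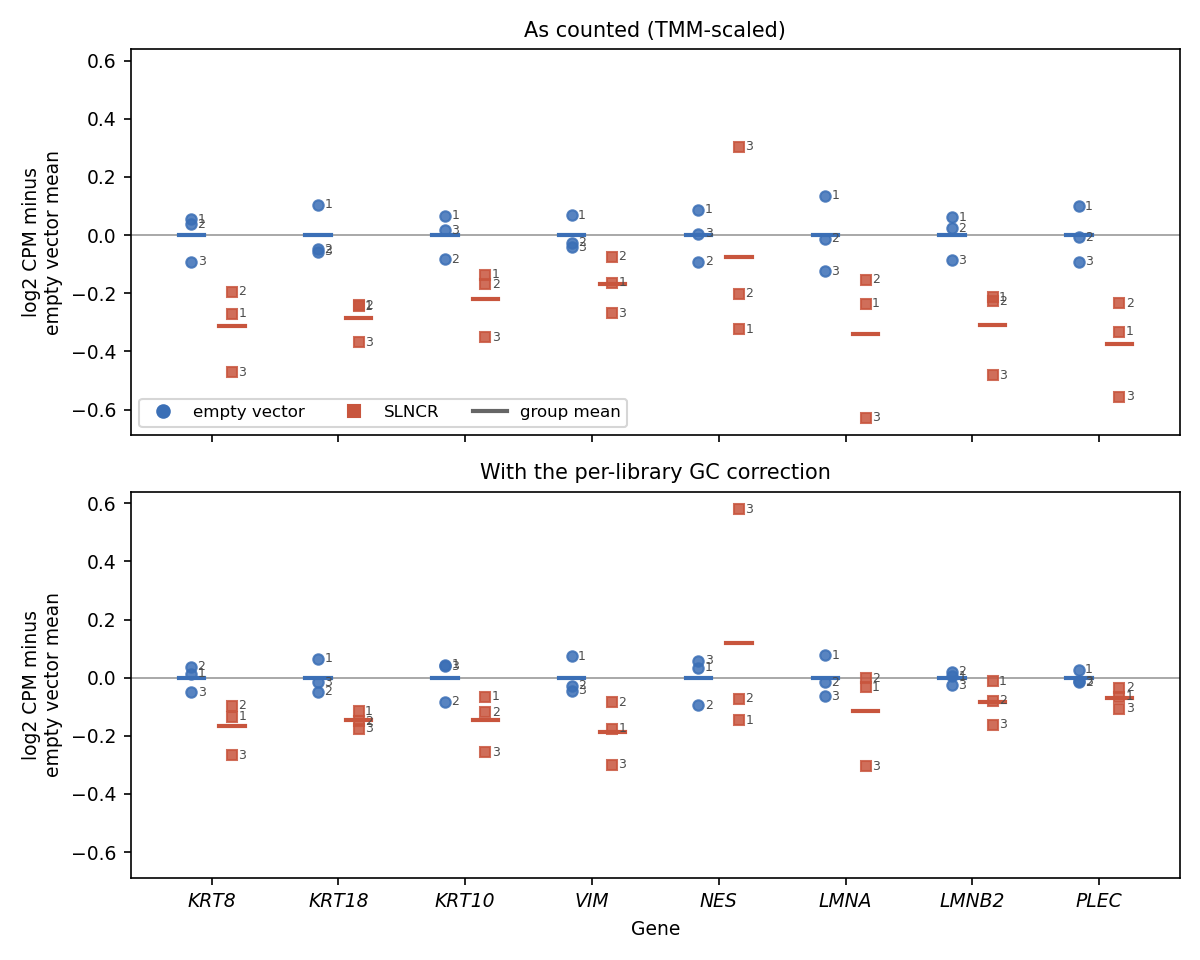
Log2 CPM of the 8 genes in each library minus the mean of the 3 empty vector libraries, as counted (top) and GC-corrected (bottom); circles are empty vector, squares SLNCR, digits the replicate, and bars group means. As counted, SLNCR replicate 3 is lowest in every gene except NES, where it is highest at 0.30; GC-corrected by the longest transcript, the squares of KRT8, KRT18, VIM and PLEC lie below all circles, which did not hold for VIM by the principal transcript.

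KRT8 (ENSG00000170421) lies on chromosome 12 from 52897187 to 52949954 on the minus strand (GENCODE 29, GRCh38). Its level was 187.5, 185.3 and 169.3 CPM in empty vector and 149.6, 157.8 and 130.1 CPM in SLNCR. Each SLNCR library was below each empty vector library, with replicate 3 lowest in both groups. The mean was 180.7 ± 9.93 CPM (SD, n = 3) and 145.8 ± 14.2, a difference of -19.3%, or -0.31 on the log2 scale (SE 0.0687). GC-corrected, the log2 fold change was -0.16 (SE 0.0486), or -0.13 by the principal transcript, and the groups did not overlap in either.

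KRT18 (ENSG00000111057), the partner gene, lies head to head with KRT8 on chromosome 12 from 52948871 to 52952901 on the plus strand. Its level was 412.3, 370.6 and 368.5 CPM in empty vector and 323.5, 324.2 and 296.7 CPM in SLNCR. The groups did not overlap, and empty vector replicate 1 was the highest library. The mean was 383.8 ± 24.7 CPM (SD, n = 3) and 314.8 ± 15.7, a difference of -18.0%, or -0.29 on the log2 scale (SE 0.0562). GC-corrected, it was -0.15 (SE 0.0399), or -0.08 (SE 0.0384) by the principal transcript, without overlap in either.

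The ratio of counts of the pair was read in each library, without scaling for the lengths of the genes. KRT8 had 0.455, 0.5 and 0.459 counts per KRT18 count in empty vector and 0.463, 0.487 and 0.438 in SLNCR. The ratio overlapped between groups and differed by -0.03 on the log2 scale, a comparison that no scaling of the libraries touches. Both genes were chosen on this contrast, so the ratio carries no test. GENCODE gives the genes 525 exon bases in common on opposite strands (from 52949216 to 52949954), which is 7.63% of the exon bases of KRT8 and 16.3% of those of KRT18. The strand setting of the counting is not given in the sources used here, so reads from this stretch cannot be assigned to one gene from the counts. Among rows named as pseudogenes of either keratin, the table used held KRT18P55, with 1 to 3 counts per library.

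KRT10 (ENSG00000186395; chromosome 17, 40818117 to 40822595, minus strand) encodes a type I keratin of differentiating epidermis. It had 29.2, 26.3 and 28.2 CPM in empty vector and 25.4, 24.8 and 21.8 CPM in SLNCR. The groups did not overlap, yet the lowest empty vector library and the highest SLNCR library were less than 1 CPM apart. The mean was 27.9 ± 1.48 CPM (SD, n = 3) and 24.0 ± 1.92, a log2 fold change of -0.22 (SE 0.0929) that did not pass (adjusted p = 0.107 by edgeR). GC-corrected, it was -0.14 (adjusted p = 0.443 by edgeR) and the groups overlapped.

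VIM (ENSG00000026025; chromosome 10, 17228259 to 17237593, plus strand) had 3642, 3408 and 3374 CPM in empty vector and 3102, 3296 and 2882 CPM in SLNCR. The groups did not overlap, although SLNCR replicate 2 came within 100 CPM of the lowest empty vector library. The mean was 3474 ± 146 CPM (SD, n = 3) and 3093 ± 207, a difference of -11.0%, or -0.17 on the log2 scale (SE 0.0499), smaller than that of either keratin partner. The GC-corrected value of VIM depended on the transcript. It was -0.18 (SE 0.0494) by the longest transcript (46.9% GC), which lacks the first coding exon, and -0.07 (SE 0.0332) by the principal transcript (54.1% GC), which holds it. In the latter the groups overlapped. Set against the keratins, VIM had 19.4, 18.4 and 19.9 counts per KRT8 count in empty vector and 20.7, 20.9 and 22.2 in SLNCR, with no overlap and a log2 difference of 0.14. Against KRT18 the same ratio was 8.83, 9.19 and 9.16 in empty vector and 9.59, 10.2 and 9.71 in SLNCR, a log2 difference of 0.12. KRT8, KRT18 and VIM were chosen on this contrast, so these ratios carry no test. Both ratios are also without the GC correction. With it, VIM, KRT8 and KRT18 stood at -0.18, -0.16 and -0.15 by the longest transcript. By the principal transcript they stood at -0.07, -0.13 and -0.08.

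The first coding exon of VIM is also annotated as an exon of VIM-AS1, an antisense non-coding RNA gene on the minus strand (chromosome 10, 17214239 to 17229985). The shared stretch runs from 17229345 to 17229985, is 641 bases long, and makes up 12.4% of the exon bases of VIM and 32.2% of those of VIM-AS1. The sequence below shows the first 150 coding bases of vimentin inside it (chr10:17229423-17229572, plus strand, GRCh38), with the start codon in capitals.
VIM coding start: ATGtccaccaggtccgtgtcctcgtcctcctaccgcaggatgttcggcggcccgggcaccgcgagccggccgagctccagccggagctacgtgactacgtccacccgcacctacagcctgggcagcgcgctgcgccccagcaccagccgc
This run is 72.0% G and C, and the whole shared exon 68.5%, while the rest of the principal VIM transcript is 48.0%. VIM-AS1 had 1387, 1198 and 1169 CPM in empty vector and 914.5, 1057 and 733.5 CPM in SLNCR. All SLNCR libraries were below all empty vector libraries, with SLNCR replicate 3 lowest. The mean was 1251 ± 118 CPM (SD, n = 3) and 901.8 ± 162, a log2 fold change of -0.47 (SE 0.143) that did not pass (adjusted p = 0.0732 by edgeR). Relative to VIM it had 0.381, 0.351 and 0.347 counts per VIM count in empty vector and 0.295, 0.321 and 0.255 in SLNCR, without overlap, a log2 difference of -0.32. Without a known strand setting, vimentin reads from the shared exon and reads of the antisense RNA cannot be told apart. VIM-AS1 entered the GC correction with 37.1%, the value of a longest transcript that lacks the shared exon, and its corrected value of -0.68 (adjusted p = 0.283 by edgeR) rests on that value.

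**Figure D3:**
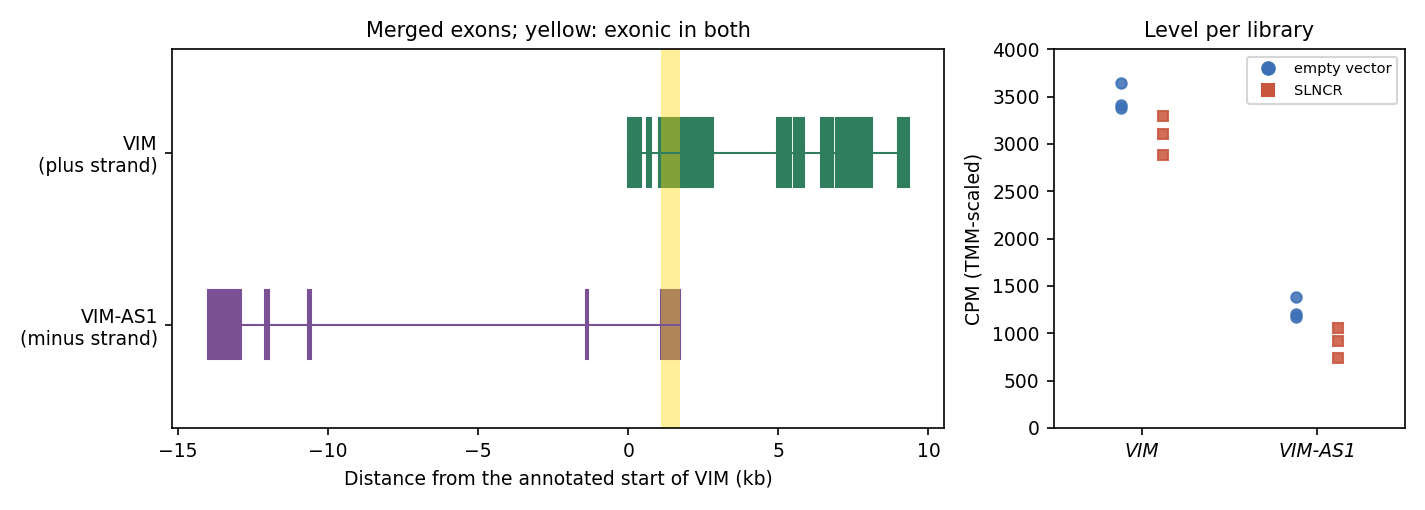
Left, merged exons (boxes) of VIM and VIM-AS1 by distance from the annotated start of VIM in kb, with the stretch exonic in both in yellow. Right, CPM of both genes in each library: in both genes the 3 SLNCR squares lie below the 3 empty vector circles, by a wider margin in VIM-AS1.

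NES (ENSG00000132688; chromosome 1, 156668763 to 156677397, minus strand) rested on 50 to 67 counts per library. It had 6.38, 5.62 and 6.02 CPM in empty vector and 4.75, 5.19 and 7.46 CPM in SLNCR. SLNCR replicates 1 and 2 were the lowest libraries and SLNCR replicate 3 the highest, so the groups overlapped. The log2 fold change was -0.07 (SE 0.188, adjusted p = 0.812 by edgeR) and turned to 0.13 with the GC correction (adjusted p = 0.803 by edgeR). Without SLNCR replicate 1 it was 0.06. A difference in NES was not detectable at this depth.

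LMNA (ENSG00000160789; chromosome 1, 156082573 to 156140089, plus strand) encodes lamins A and C, the lamins that stiffen the nucleus. Its level was 673.0, 607.5 and 562.0 CPM in empty vector and 520.0, 550.8 and 396.4 CPM in SLNCR. The groups did not overlap, but SLNCR replicate 2 came within 12 CPM of empty vector replicate 3, and SLNCR replicate 3 stood well below the rest. The mean was 614.2 ± 55.8 CPM (SD, n = 3) and 489.1 ± 81.7, a log2 fold change of -0.33 (SE 0.126) that did not pass (adjusted p = 0.114 by edgeR). Without SLNCR replicate 3 the difference shrank to -0.20 (SE 0.0538) and passed (adjusted p = 0.0181 by edgeR). Over the 6 fits that each left out 1 library the edgeR adjusted p ran from 0.0181 to 0.244. GC-corrected, LMNA stood at -0.11 (SE 0.0820, adjusted p = 0.578 by edgeR), and SLNCR replicates 1 and 2 were at -0.03 and 0.00 of the empty vector mean.

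LMNB2 (ENSG00000176619; chromosome 19, 2427638 to 2456996, minus strand) encodes lamin B2, a B-type lamin that stays anchored to the membrane. It had 201.9, 196.7 and 182.2 CPM in empty vector and 166.8, 165.1 and 138.4 CPM in SLNCR. The groups did not overlap. LMNB2 fell from 193.6 ± 10.2 CPM (SD, n = 3) to 156.8 ± 15.9, a log2 fold change of -0.30 (SE 0.0690, adjusted p = 0.0149 by edgeR), lower in 3 of 3 SLNCR libraries. The call was lost when empty vector replicate 1 or 2 or SLNCR replicate 1 was left out (adjusted p = 0.108, 0.0847 and 0.0543 by edgeR), where the log2 fold changes were -0.27, -0.29 and -0.35. GC-corrected, it stood at -0.08 (SE 0.0457, adjusted p = 0.409 by edgeR), with overlap. LMNB2 shares 257 exon bases at its end with TIMM13 on the same strand, and TIMM13 had a log2 fold change of -0.30 (adjusted p = 0.0433 by edgeR; -0.04 GC-corrected).

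LMNB1, the other B-type lamin gene, had 230.9, 225.7 and 233.8 CPM in empty vector and 214.0, 219.8 and 209.3 CPM in SLNCR. The groups did not overlap, and the log2 fold change of -0.10 (SE 0.0506) did not pass (adjusted p = 0.160 by edgeR). LMNA kept its proportion to LMNB2, with 3.33, 3.09 and 3.08 counts per LMNB2 count in empty vector and 3.12, 3.34 and 2.86 in SLNCR, overlapping groups and a log2 difference of -0.03. Against LMNB1 it had 2.91, 2.69 and 2.40 in empty vector and 2.43, 2.51 and 1.89 in SLNCR, which also overlapped, with a log2 difference of -0.24. The GC content of LMNA (61.5%) and LMNB2 (61.4%) is nearly the same, whereas that of LMNB1 is 51.1%.

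PLEC (ENSG00000178209; chromosome 8, 143915147 to 143976734, minus strand) encodes plectin, a giant linker that binds keratin, vimentin and lamin filaments. It had 1962, 1823 and 1720 CPM in empty vector and 1455, 1557 and 1246 CPM in SLNCR. The groups lay more than 100 CPM apart. PLEC fell from 1835 ± 122 CPM (SD, n = 3) to 1419 ± 159, a difference of -22.6% and, as counted, the largest of the 8, with a log2 fold change of -0.37 (SE 0.0725, adjusted p = 0.0139 by edgeR), lower in 3 of 3 SLNCR libraries. The call was lost when empty vector replicate 1 or 2 or SLNCR replicate 1 was left out (adjusted p = 0.106, 0.0804 and 0.0543 by edgeR), where the log2 fold changes were -0.32, -0.38 and -0.39. GC-corrected, it stood at -0.07 (SE 0.0332, adjusted p = 0.338 by edgeR), still with all SLNCR libraries below the others. Per VIM count, PLEC had 0.539, 0.535 and 0.510 counts in empty vector and 0.469, 0.473 and 0.432 in SLNCR, without overlap, a log2 difference of -0.21. VIM was picked on this contrast, so the ratio carries no test. Nor is it GC-corrected, and PLEC has 67.0% GC against 46.9% for VIM (54.1% by its principal transcript). Corrected by the principal transcript, both genes stood at -0.07.

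The 8 genes differ in GC content, and their fold changes were set beside those of genes of like composition. The median log2 fold change was 0.21 over the 2134 tested genes below 40% GC and -0.29 over the 405 genes at 65% or above. PLEC (67.0% GC) belongs to the latter. In the bin from 60% to 65%, where LMNA and LMNB2 lie at -0.33 and -0.30, the median was -0.24 (1319 genes). From 55% to 60% it was -0.17 (1838 genes), beside -0.31 for KRT8 (56.2% GC), -0.29 for KRT18 (55.7%) and -0.07 for NES (59.3%). From 50% to 55% it was -0.08 (1989 genes), beside -0.22 for KRT10 (52.0%). VIM, at -0.17, falls in the bin from 45% to 50% (median 0.01, 2245 genes) by its longest transcript and in that from 50% to 55% (median -0.08, 1968 genes) by its principal transcript. The principal transcripts of KRT8 and KRT18 have 59.1% and 60.5% GC, and the median of the bin from 60% to 65%, which then holds KRT18, was again -0.24 (1439 genes). The other 5 genes have the same GC content by either transcript.

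The correction reordered the genes. As counted, PLEC had the lowest log2 fold change, with 6.60% of tested genes lower still, followed by LMNA (9.06%), KRT8 (10.2%), LMNB2 (10.7%), KRT18 (12.2%), KRT10 (19.6%), VIM (26.2%) and NES (41.7%). GC-corrected by the longest transcript, 12.4% of tested genes were lower than VIM, 14.7% than KRT8, 16.6% than KRT18, 16.9% than KRT10, 22.4% than LMNA, 27.4% than LMNB2, 30.4% than PLEC and 83.3% than NES. By the principal transcript KRT10 came first (15.2%), then KRT8 (18.1%), LMNA (20.5%), LMNB2 (25.3%), KRT18 (26.4%), PLEC (29.6%), VIM (30.2%) and NES (81.8%), so the place of VIM among the 8 went from lowest to next to last. These ranks are a description. Of the 5 genes not picked for their direction, 1 (PLEC) had all SLNCR libraries below all empty vector libraries in GC-corrected values, against 9.89% of tested genes, and again 1 (PLEC) by the principal transcript, against 9.68%.

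**Figure D4:**
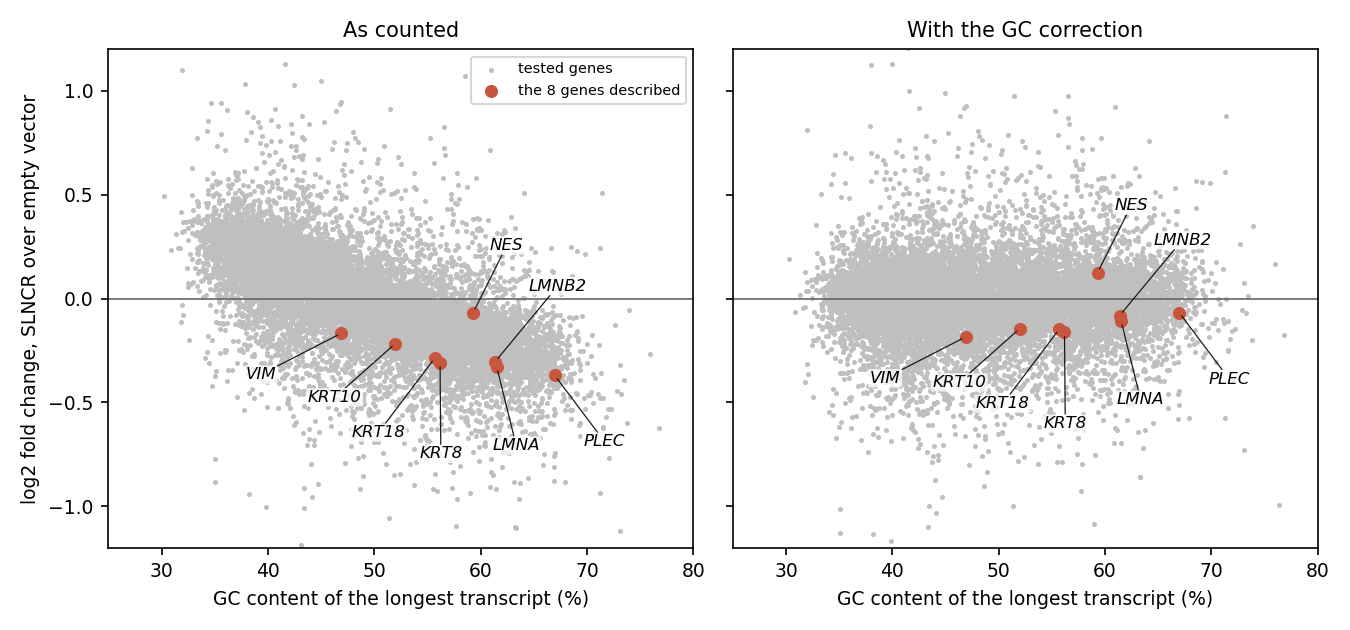
Log2 fold change (SLNCR over empty vector) of tested genes against the GC content of the longest transcript in percent, as counted (left) and GC-corrected (right), with the 8 genes in red. As counted, the cloud slopes down and PLEC and LMNA lie within it; GC-corrected, the cloud is level, VIM is at -0.18 (-0.07 by its principal transcript, not drawn) and NES is at 0.13. The axes leave out 13 genes beyond 1.2 on the log2 scale, 2 outside 25% to 80% GC and 7 without a GC value.

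The 7 genes other than NES varied together over the 6 libraries, with Pearson's r between 0.887 and 0.992 for log2 CPM, whereas NES had r between -0.379 and -0.0147 with them. Many genes shared this pattern: of 10624 genes compared, 1538 had r above 0.9 with KRT8, 1234 with KRT18 and 1483 with VIM. The 3 nearest to KRT8 were COMMD4, EPHA2 and DGKZ (r = 0.999, 0.998 and 0.998), to KRT18 CCDC85B, WDR81 and TCF25 (0.999, 0.998 and 0.998), and to VIM FAM53B, CTBP1 and BCR (0.999, 0.998 and 0.998). All 9 had a GC content of 57.7% to 67.7%. The 6 points share library size, base composition and the group difference, so these values describe these libraries.

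The rest of the filament system was read from lists with the 8 genes left out. Of 66 listed filament, linker and lamina genes in the table, 38 were tested, 2 rose, 5 fell and 31 did not pass, so that 7 of 38 were called beside 16.5% of all tested genes. Their median log2 fold change was -0.03 (-0.01 GC-corrected), against -0.01 over all tested genes. With the GC correction 0 of the 38 passed and 7 had an unadjusted p below 0.05. As counted, 0 passed by edgeR when empty vector replicate 1 or 2 or SLNCR replicate 1 was left out, with 8, 12 and 12 at an unadjusted p below 0.05.

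Few other keratin genes had enough counts to test. The table held 12 other type I keratin genes, of which KRT34 and KRT15 were tested and 0 passed, with log2 fold changes of 0.39 and -0.16. Of 13 other type II genes 4 were tested, and KRT81 fell, from 1197 ± 109 CPM (SD, n = 3) to 1011 ± 97.5, a log2 fold change of -0.24 (SE 0.0736, adjusted p = 0.0421 by edgeR). Its GC content is 62.3%, and GC-corrected it stood at -0.01. KRT7, another type II keratin gene of simple epithelia, had 23.5, 16.9 and 18.6 CPM in empty vector and 16.7, 15.5 and 10.0 in SLNCR. Its log2 fold change was -0.47 (SE 0.169, adjusted p = 0.0668 by edgeR). At 62.9% GC, KRT7 stood at -0.23 with the GC correction (adjusted p = 0.442 by edgeR), and the groups overlapped. KRT80 stood at -0.12 (adjusted p = 0.104 by edgeR) and at 0.03 with the correction.

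Among the type IV and beaded filament genes NEFL, SYNM and BFSP1, relatives of NES, 0 of 3 passed, with log2 fold changes of 0.05, -0.03 and -0.14. Among plakins and linkers, the family of PLEC, 0 of 8 tested genes passed and the median was -0.02. MACF1, the plakin that joins actin and microtubules and the highest of the list, stood at -0.08 (adjusted p = 0.254 by edgeR), PKP3, a desmosomal plakophilin gene, at -0.23 (adjusted p = 0.173 by edgeR) and JUP, which encodes plakoglobin, at 0.24 (adjusted p = 0.436 by edgeR). GC-corrected, the 3 stood at -0.11, 0.07 and 0.46, the median of the list was 0.01 and 0 of 8 passed. The plakin gene DST went from -0.03 to -0.16 with the correction (adjusted p = 0.0988 by edgeR).

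Of 16 lamina and nuclear envelope partners 4 fell and 1 rose, beside 7.67% lower and 8.84% higher over all tested genes. SUN2, which links the lamina to the cytoskeleton, fell by 0.35 on the log2 scale (SE 0.0809, adjusted p = 0.0151 by edgeR). LEMD2 fell by 0.39 (adjusted p = 0.0185 by edgeR) and EMD, which encodes emerin, by 0.35 (adjusted p = 0.0195 by edgeR); both proteins carry the LEM domain that binds BANF1. BANF1 itself fell by 0.18 (adjusted p = 0.0442 by edgeR), and TOR1AIP1, whose product binds lamins, rose by 0.27 (adjusted p = 0.0231 by edgeR). GC-corrected values were -0.14, -0.28, -0.15, -0.05 and 0.12 in the same order, and the GC content of these genes was 60.8%, 54.1%, 59.97%, 55.2% and 40.5%. Of 4 tested lamin processing enzymes ZMPSTE24, the protease that matures lamin A, rose by 0.25 (adjusted p = 0.0166 by edgeR; 0.05 GC-corrected, 38.0% GC), while FNTA and RCE1, which act in the same maturation path, stood at 0.18 and -0.10 (adjusted p = 0.208 and 0.527 by edgeR).

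**Figure D5:**
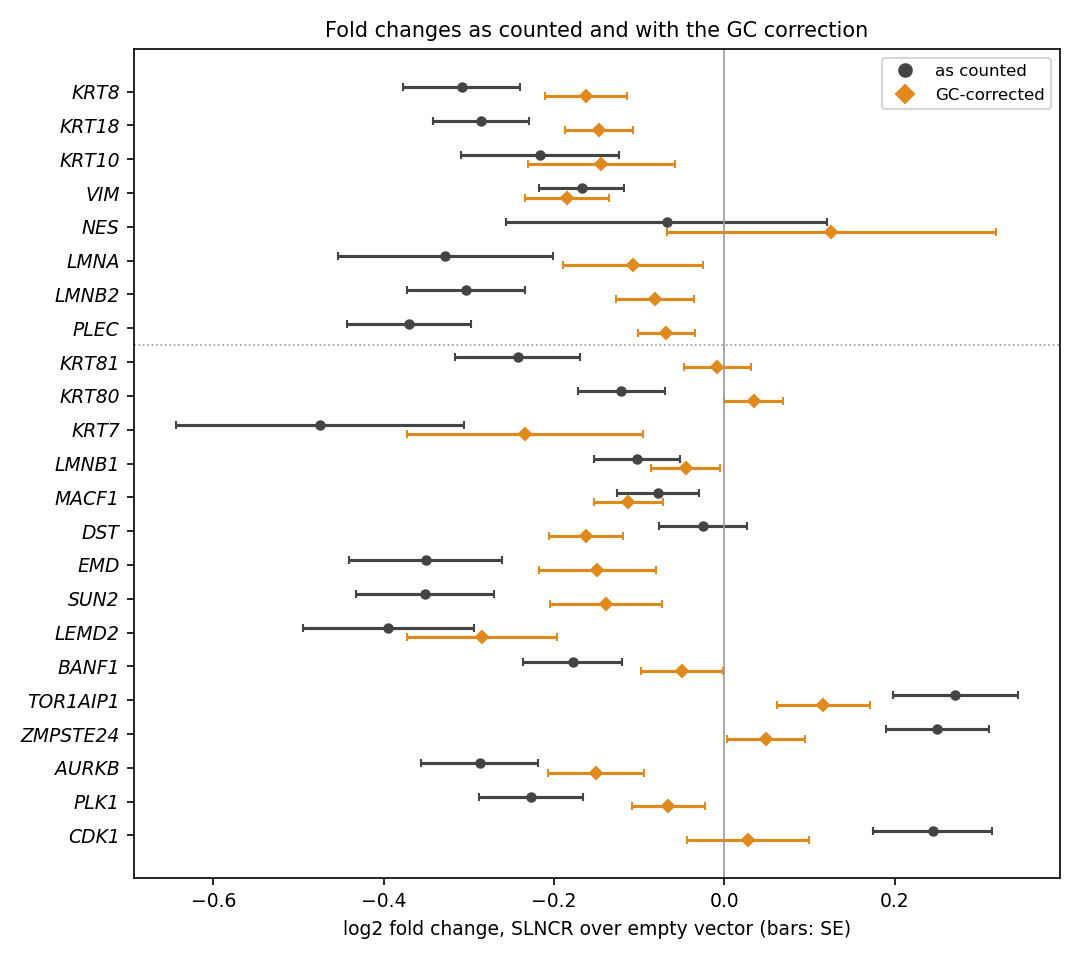
Log2 fold change (SLNCR over empty vector) with its SE for the 8 genes (above the dotted line) and for other filament, linker, lamina and kinase genes, as counted (dark circles) and GC-corrected (orange diamonds). The correction, drawn by the longest transcript, moves LMNA, LMNB2, PLEC and KRT81 toward 0, and MACF1 and DST away from it, to -0.11 and -0.16. VIM, drawn at -0.18, stood at -0.07 by its principal transcript.

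The labels call A375 cells epithelial. Of 16 epithelial markers 14 were in the table and 3 (KRT7, CLDN4 and MUC1) averaged 10 counts or more, and the defining genes EPCAM and CDH1 had 2 to 4 and 0 to 2 counts per library. The summed level of the list was 26.0 to 32.4 CPM in empty vector and 18.7 to 25.9 in SLNCR, and 0 of 3 tested markers passed. The lower sum came from KRT7, with means of 19.7 and 14.1 CPM in empty vector and SLNCR, whereas CLDN4 had 4.55 and 4.64 and MUC1 2.49 and 2.93. Of 12 melanocyte and melanoma markers 10 were in the table and 6 (MITF, MLANA, SOX10, PAX3, RAB38 and TFAP2A) averaged 10 counts or more. The summed level of the list was 143 to 160 CPM in empty vector and 153 to 165 in SLNCR, with 0 of 6 passing. MITF was the largest part of it, with means of 85.4 and 95.6 CPM. The pigment genes PMEL, DCT, TYRP1 and SLC45A2 averaged under 10 counts. Fibroblast markers, whose cells also make vimentin, summed to 14.8 to 18.1 CPM and 14.9 to 16.4, and immune and endothelial markers to 1.10 to 2.31 and 1.62 to 3.23. The part of these markers in the results was not tested. In bulk RNA, fewer cells that make a filament and less of its RNA per cell cannot be told apart.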

How the data were processed

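RNA sequencing was done on 3 empty vector and 3 SLNCR libraries of A375 cells. Raw read counts per gene, as the authors deposited them, were the starting point; cutadapt, STAR, DESeq2 1.24.07 and build GRCh38 are named in the submitters' processing notes. Which counter, annotation and strand setting were used is not given in the sources used here. Of 20238 rows, 1857 that name no gene (2.15% to 2.59% of counts) and 63 repeats within 22 runs of identical neighbouring rows were left out. Symbols and coordinates came from GENCODE 29, matched for 18307 of 18318 genes. Groups were compared with edgeR 4.0.16 (quasi-likelihood F-test, robust, TMM, filterByExpr), with two-sided p-values adjusted by Benjamini-Hochberg over 12797 genes, at 0.05; the biological coefficient of variation was 5.65%. The SE is the log2 fold change over the root of its F. Log2 CPM used a prior count of 2. The GC correction subtracted, per library, a loess curve (span 0.5, degree 2) over the GC content of the longest transcript as offsets. An alternative chosen after seeing the data took the APPRIS principal transcript, which 11728 tested genes have. The edgeR fit and the correction were tested on simulated data. Libraries of one group differed by more than counting noise (chi-square per degree of freedom 1.79 to 6.97).

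The 8 genes and the lists were chosen with earlier results of these data known. Named genes are the 8, the 3 smallest p and the highest level per kb in each list, and the 3 genes nearest in pattern to KRT8, KRT18 and VIM (mean count at least 50). LINC00673, VIM-AS1, TIMM13, KRT86, KRT18P55, DST, TOR1AIP1, MAPK14, EPCAM, CDH1, PMEL, DCT, TYRP1 and SLC45A2 were named outside it after their values were seen. Alternatives were other size factors, no filter, DESeq2 1.42.0, the replicate block, transcript length and leaving out libraries.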

Additional observations from a re-analysis of the deposited data

How the results depend on the processing

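Under 14 other settings and the GC correction by the principal transcript, KRT8, KRT18, KRT10, VIM, LMNA, LMNB2 and PLEC kept a negative log2 fold change, and KRT10 and NES never passed. The sign of NES turned: it was 0.13 with the GC correction, 0.11 with that by the principal transcript, 0.13 with the GC correction and replicate block, 0.059 without SLNCR replicate 1 and 0.0029 without SLNCR replicate 2 (-0.27 without SLNCR replicate 3), and with the GC correction it was 0.15, 0.080 and 0.15 without empty vector replicates 1, 2 and 3 and 0.26, 0.23 and -0.12 without SLNCR replicates 1, 2 and 3. The number of changed genes, 2112, became 2 with the GC correction by either transcript, and 1 to 3366 with each library left out (0, 1, 4, 2, 668 and 101 with the GC correction as well, without each empty vector and then each SLNCR replicate, a setting chosen after seeing the data). Of the 8 genes, 5 changed as counted (3 of them picked for it) and 0 with the GC correction by either transcript. With each library left out, 0 to 5 changed. The count was 0 without empty vector replicate 1 or 2 or SLNCR replicate 1, with 5, 7 and 7 at an unadjusted p below 0.05. With both the GC correction and a library left out, 0, 1 or 2 changed. These were only VIM and KRT8, picked for being lower. Of the 38 other filament, linker and lamina genes 7 changed as counted, 0 with the GC correction by either transcript, 0 to 9 with each library left out and 0 to 1 with both. Relative log expression, upper quartile or total scaling, no filter and DESeq2 left these counts within 1.5 times. Same-numbered libraries were not clearly paired. Their deviations correlated at 0.0414, 0.0217 and 0.195, the last the highest of all pairs. Empty vector replicate 1 correlated best with SLNCR replicate 2 (0.143), while empty vector replicates 2 and 3 correlated best with their own number. With the replicate number as a block, 3523 genes changed (407 with the GC correction). Of the 8 genes 6 did, LMNA now among them at -0.34 (adjusted p = 0.000348 by edgeR). With the GC correction as well 3 of the 8 did, and these were KRT8, KRT18 and VIM, picked for being lower. Of the 38 other genes 12 changed with the block (1 with the GC correction). The cause of these shifts was not tested. By the longest transcript in place of merged exons, levels in empty vector and SLNCR were 63.1 and 51.0 CPM per kb for KRT8, 183.8 and 150.8 for KRT18, 1303 and 1160 for VIM, 192.5 and 153.3 for LMNA, 41.5 and 33.6 for LMNB2 and 120.3 and 93.1 for PLEC, because the length divided by is shorter. In both groups LMNA then stood above KRT18 and PLEC, and KRT8 above LMNB2. With each library left out, the log2 difference of the ratio of KRT8 to KRT18 ran from -0.064 to 0.016, of VIM to KRT8 from 0.112 to 0.170, of LMNA to LMNB2 from -0.084 to 0.026 and of VIM-AS1 to VIM from -0.391 to -0.224. Depth limits NES above all, at 50 to 67 counts per library.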

Other observations

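Actin and tubulin genes, the other cytoskeletal systems of the cell, were read beside the filament genes. Of 12 tested genes 3 fell and 0 rose, beside 7.67% lower and 8.84% higher over all tested genes. TUBB3, a tubulin of neurons and many tumour cells, had a log2 fold change of -0.27 (adjusted p = 0.0302 by edgeR), TUBB6 of -0.17 (adjusted p = 0.0434 by edgeR) and ACTG1, cytoplasmic gamma actin, of -0.15 (adjusted p = 0.0306 by edgeR). ACTB, cytoplasmic beta actin, stood at -0.01 (adjusted p = 0.875 by edgeR). GC-corrected, TUBB3, TUBB6, ACTG1 and ACTB stood at -0.05, 0.04, 0.02 and 0.12, and 0 of 12 passed.

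Of 12 kinases that phosphorylate intermediate filaments 2 rose and 2 fell, beside 8.84% higher and 7.67% lower over all tested genes. The mitotic kinase genes AURKB and PLK1, whose products phosphorylate vimentin in dividing cells, fell by 0.29 and 0.23 (adjusted p = 0.0159 and 0.0231 by edgeR), while CDK1, which phosphorylates lamins at mitosis, rose by 0.24 (adjusted p = 0.0279 by edgeR) and the stress kinase gene MAPK14 by 0.21 (adjusted p = 0.0441 by edgeR). GC-corrected, the 4 stood at -0.15, -0.07, 0.03 and 0.18, and 0 of 12 passed.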
